A study of Mus musculus with 12 samples.

Results

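The genes described here are 10 members of TREM2 signalling and of the genes tied to Alzheimer disease risk that microglia use: Trem2, Tyrobp, Syk, Plcg2, Inpp5d, Vav1, Bin1, Picalm, Sorl1 and Cd33. Every accessible region (peak) that the authors' annotation gives to one of these genes was taken, 334 of 281974 peaks in all, made up of 193 of 91770 in microglia, 71 of 107627 in NeuN+ nuclei and 70 of 82577 in Olig2+ nuclei. The assay was ATAC-seq, which uses a transposase to cut and tag open chromatin, on forebrain cells of C57BL/6 mice aged 4 months. Wild-type (WT) mice were compared with SgshKO mice, knocked out for Sgsh, the lysosomal sulfamidase that degrades heparan sulfate. The 6 groups were live microglia (CD11b+, CD45 low, CX3CR1+), neuronal nuclei (NeuN+, negative for PU.1 and OLIG2) and oligodendrocyte-lineage nuclei (OLIG2+, negative for PU.1 and NeuN), each from WT and from SgshKO, with 2 libraries per group. All groups share the strain, age and tissue. Both kinds of nuclei were lightly fixed with formaldehyde, whereas the microglia were sorted alive. The labels do not state the kind of Sgsh allele, the sex or how many animals made up a library, so p-values measure only the spread between these libraries. A peak's gene is the one with the nearest start site in the authors' annotation, which does not show that the peak acts on it.

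TREM2 is a lipid-binding surface receptor of microglia that has no signalling tail of its own. It pairs with the adaptor TYROBP (DAP12), whose phosphorylated motif recruits the kinase SYK, and SYK in turn activates the phospholipase PLCG2 and the exchange factor VAV1. INPP5D (SHIP1) removes a phosphate from the lipid messenger that PI3-kinase makes and so dampens the pathway, while CD33 is a receptor that binds sialic acid. BIN1, PICALM and SORL1 act in membrane trafficking: BIN1 bends membranes, PICALM assembles clathrin coats, and SORL1 sorts the amyloid precursor protein between endosomes and the Golgi.

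Promoter sequences are shown for 5 members, because start-site peaks lay over them in microglia and because they differ in short motifs. Each is the 250 bases before the annotated start, from RefSeq on GRCm38.p6, written 5′ to 3′ on the gene's own strand. Capitals mark GAGGAAGT (a PU.1-type motif), CACGTG and TCACGTGA (the E-box and the longer element bound by MITF, TFEB and TFE3, which holds CACGTG within it) or TGANTCA (the AP-1 motif), each searched on both strands.
Trem2 (chr17:48346151-48346400, plus strand): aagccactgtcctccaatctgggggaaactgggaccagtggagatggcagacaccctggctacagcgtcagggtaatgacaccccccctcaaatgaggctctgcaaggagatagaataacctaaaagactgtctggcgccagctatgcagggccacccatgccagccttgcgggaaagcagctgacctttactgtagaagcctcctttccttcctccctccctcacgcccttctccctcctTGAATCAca
Inpp5d (chr1:87620062-87620311, plus strand): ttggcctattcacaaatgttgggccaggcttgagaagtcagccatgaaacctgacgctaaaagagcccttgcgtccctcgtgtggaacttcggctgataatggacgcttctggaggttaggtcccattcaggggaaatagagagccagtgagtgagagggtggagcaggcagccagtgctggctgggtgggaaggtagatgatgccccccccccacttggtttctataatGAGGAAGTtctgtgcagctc
Vav1 (chr17:57278850-57279099, plus strand): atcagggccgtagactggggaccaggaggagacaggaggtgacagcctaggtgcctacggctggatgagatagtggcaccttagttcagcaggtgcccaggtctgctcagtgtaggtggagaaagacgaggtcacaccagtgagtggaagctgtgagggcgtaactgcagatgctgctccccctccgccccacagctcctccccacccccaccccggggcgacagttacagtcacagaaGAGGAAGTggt
Picalm (chr7:90129963-90130212, plus strand): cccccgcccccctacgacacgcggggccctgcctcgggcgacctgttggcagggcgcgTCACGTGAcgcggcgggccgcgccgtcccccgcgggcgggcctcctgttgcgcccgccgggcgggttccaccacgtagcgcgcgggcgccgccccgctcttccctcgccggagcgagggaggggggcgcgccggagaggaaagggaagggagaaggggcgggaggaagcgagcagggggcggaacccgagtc
Sorl1 (chr9:42124298-42124547, minus strand): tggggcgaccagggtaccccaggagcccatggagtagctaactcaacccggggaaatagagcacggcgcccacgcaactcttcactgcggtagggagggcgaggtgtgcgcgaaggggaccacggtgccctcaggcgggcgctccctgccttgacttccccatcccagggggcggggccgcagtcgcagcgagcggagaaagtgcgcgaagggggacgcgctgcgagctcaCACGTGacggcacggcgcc

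The PU.1-type motif lay 20 to 13 bases before the Inpp5d start and 11 to 4 bases before the Vav1 start. Of the 8 members whose promoters were searched, which left out Tyrobp and Bin1, only Picalm held TCACGTGA. It lay 192 to 185 bases before the start and inside the start-site peak of all 3 sorts. The 6-base CACGTG stood 19 to 14 bases before the Sorl1 start and 20 to 15 bases before that of Plcg2. The AP-1 motif ended 3 bases before the Trem2 start. Over the 32851 promoters of the same length, 2.44% held GAGGAAGT, 6.02% CACGTG, 0.785% TCACGTGA and 6.75% TGANTCA. A match of letters is a description and does not show that a factor was bound.

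The deposited value of a peak is the number of reads in it, scaled to 10000000 reads per library, called normalized tags here. Library totals ran from 10771659 to 11804222 in microglia, 14326703 to 17706971 in NeuN+ and 15044194 to 19555924 in Olig2+ nuclei. Reads in the median peak numbered 17 to 39, depending on the library, and 1 read was worth between 0.511 and 0.928 normalized tags. The share of reads inside peaks was 55.8% and 48.7% in WT against 67.4% and 53.7% in SgshKO microglia. In NeuN+ nuclei it was 26.7% and 25.9% against 21.5% and 21.2%, and in Olig2+ nuclei 30.9% to 31.8% in all 4 libraries. Start-site peaks were found for 9 of 9 microglia markers in microglia, 7 of 7 neuron markers in NeuN+ nuclei and 9 of 9 oligodendrocyte-lineage markers in Olig2+ nuclei. In microglia, 1 of 7 blood myeloid markers and 2 of 6 border macrophage markers had such a peak, and Ccr2, Ly6c2, Cd163 and Lyve1 had none. The border macrophage sum was 31.3 to 41.5 tags in WT and 55.7 to 69.3 in SgshKO, and the microglia sum 1947 to 2291 and 1822 to 2363. Such peaks in microglia also covered 5 of 9 oligodendrocyte-lineage markers, with 285 to 327 tags in WT and 293 to 327 in SgshKO. They covered 2 of 5 endothelial markers (158 to 184 and 104 to 160) and 2 of 5 astrocyte markers (74.55 to 114 and 64.1 to 75.3). In Olig2+ nuclei 4 of 7 neuron markers had one, with 255 to 287 tags in WT and 323 to 335 in SgshKO. The part of these sums in the results below was not tested. The Sgsh start-site peak does not check the genotype labels, since an inactive gene can keep an open promoter; it held 229 and 192 tags in WT and 364 and 253 in SgshKO microglia (limma adjusted p = 0.244). In NeuN+ nuclei it was called lower, with 34.6 and 22.6 tags in WT and 9.07 and 13.3 in SgshKO (log2 change -1.27, limma adjusted p = 0.00256), and in Olig2+ nuclei it held 65.9 and 74.2 against 60.9 and 69.1 (-0.11, limma adjusted p = 0.653).

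Start-site peaks, which lie within 1000 bp of an annotated start, were present for all 10 members in microglia. They were present for 4 in NeuN+ nuclei (Syk, Bin1, Picalm and Sorl1) and for 3 in Olig2+ nuclei (Bin1, Picalm and Sorl1). Trem2, Tyrobp, Plcg2, Inpp5d, Vav1 and Cd33 thus had a start-site peak in the microglia table alone, where peaks were called separately for each sort. Distal peaks were less restricted. At least 1 peak of any kind was assigned to 9 members in NeuN+ and 7 in Olig2+ nuclei; Cd33 had none in either, and Tyrobp and Syk had none in Olig2+ nuclei. In bulk libraries, fewer cells with an open site and less opening per cell cannot be told apart.

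In microglia the start sites of the 10 genes stayed without a call, while 11 of 170 distal peaks passed the test, 10 of them lower in SgshKO. The lower peaks belonged to Picalm (5), Inpp5d (3), Trem2 (1) and Tyrobp (1), and the higher one to Sorl1. A call means an adjusted p under 0.05 (limma with Benjamini-Hochberg adjustment over the whole table). Of all microglia peaks 7.37% were called and 2.33% were called lower, against 5.70% and 5.18% of the 193 member peaks. Among distal peaks alone, 6.52% of all microglia peaks and 6.47% of the members were called, so the members were called about as often as any distal peaks. Lower were 2.72% of all distal peaks and 5.88% of the members, and higher 3.80% and 0.588%. The median log2 change, SgshKO against WT, was -0.21 over the 170 distal member peaks and -0.12 over all distal peaks. The 37 member peaks with an unadjusted p under 0.05 include those 11. Another scaling changed the split: median-of-ratios scaling called 7 higher and 13 lower, edgeR 8 and 18, and DESeq2 4 and 3. Leaving out 1 library left a single library in its group, and the calls then depended on which library was left out. This held over all microglia peaks as well as over the members. The median log2 change of the distal member peaks then ran from -0.31 to -0.02.

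**Figure D1:**
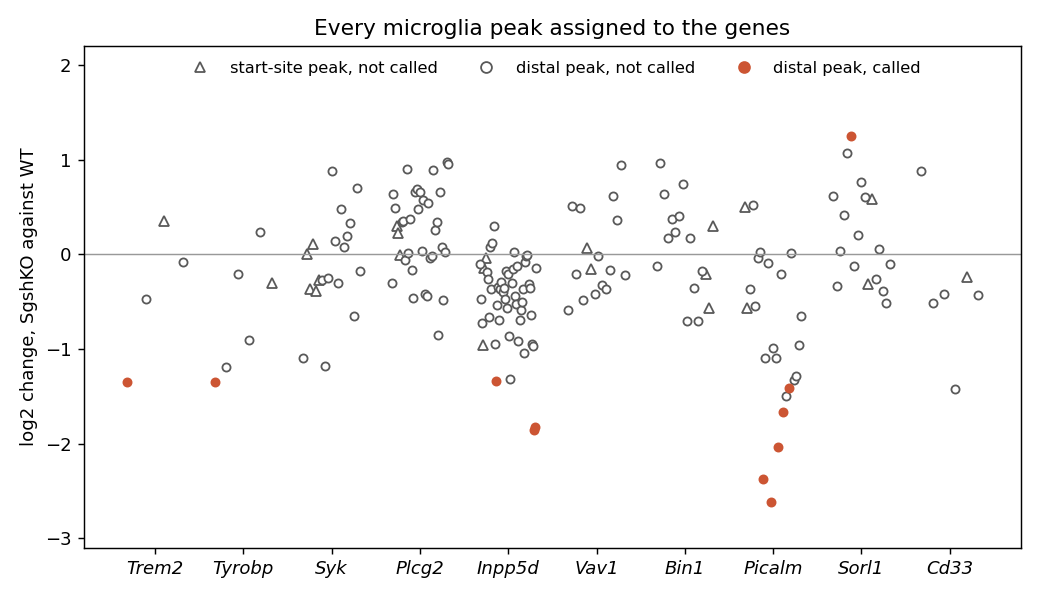
Log2 change (SgshKO against WT, y axis) of each of the 193 microglia peaks assigned to the 10 genes (x axis), in order of position within a gene. Triangles are start-site peaks, circles distal peaks, and filled circles those called; 10 of the 11 filled circles lie below 0, 5 of them at Picalm.

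None of the 23 start-site peaks of the members was called in microglia by limma, edgeR or DESeq2, and 1 had an unadjusted p under 0.05. Their median log2 change was -0.15, within a range of -0.96 to 0.58, and the smallest adjusted p was 0.193. Over all 23806 start-site peaks of the table the median was 0.03 and 9.80% were called. Other settings called some: in-peak scaling 1 (Picalm, 117 bp downstream of the start, lower), quantile normalization 3 (that peak, Inpp5d and Tyrobp, all lower), leaving out SgshKO replicate 1 gave 3 and leaving out replicate 2 gave 1. The values by gene follow in the order of the pathway.

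The tallest start-site peak of Trem2, 37 bp from the start, held 62.2 and 44.9 tags in WT and 67.5 and 67.8 in SgshKO. Both SgshKO libraries were above both WT libraries, yet the log2 change of 0.35 ± 0.34 (SE, n = 2 against 2) did not pass (limma adjusted p = 0.590). Tyrobp held 253 and 236 tags in WT and 229 and 171 in SgshKO, both lower, with a change of -0.30 (limma adjusted p = 0.559). At Cd33 they were 116 and 92.3 against 88.3 and 86.3, also without overlap, at -0.24 (limma adjusted p = 0.696). The receptors and the adaptor therefore showed no called change at their starts. Standard errors of these changes were 0.27 to 0.34 on the log2 scale, so changes of that size, and larger ones, could go uncalled at this number of libraries. At a distal peak of Echdc3, 1 of the other Alzheimer risk genes, the standard error was 0.27. A log2 change of 0.85 only just passed there (limma adjusted p = 0.0482).

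Syk, the kinase, had its tallest start-site peak at 136 and 130 tags in WT and 120 and 87.3 in SgshKO, a change of -0.37 (limma adjusted p = 0.504). Plcg2 held 244 and 215 tags in WT and 302 and 265 in SgshKO, all higher in SgshKO, at 0.30 (limma adjusted p = 0.540). At Vav1 the groups overlapped, with 251 and 242 tags in WT and 299 and 224 in SgshKO. Inpp5d, the phosphatase that dampens the pathway, also overlapped, with 332 and 271 against 306 and 239 tags and a change of -0.15 (limma adjusted p = 0.792). The signs at Plcg2 and Vav1 depend on the scaling, since quantile normalization gave -0.11 and -0.35.

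Among the trafficking genes, the tallest Bin1 start-site peak held 340 and 287 tags in WT and 416 and 352 in SgshKO, at 0.29 (limma adjusted p = 0.541), and quantile normalization turned this to -0.21. Picalm had 2 start-site peaks 8 bp apart whose values went opposite ways. The upstream one held 251 and 225 tags in WT and 257 and 438 in SgshKO (log2 change 0.49, limma adjusted p = 0.292). The downstream one held 338 and 301 tags in WT and 241 and 190 in SgshKO (-0.57, limma adjusted p = 0.193). The printed promoter overlaps the upstream peak and its TCACGTGA lies within it. Neither peak was called with all 4 libraries. Without SgshKO replicate 1, which left the library with 438 tags, both passed in opposite directions (0.88 and -0.74, limma adjusted p = 0.00565 and 0.0236). At Sorl1 the values were 65.7 and 63.5 against 58.9 and 45.5 (-0.31, limma adjusted p = 0.636).

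**Figure D2:**
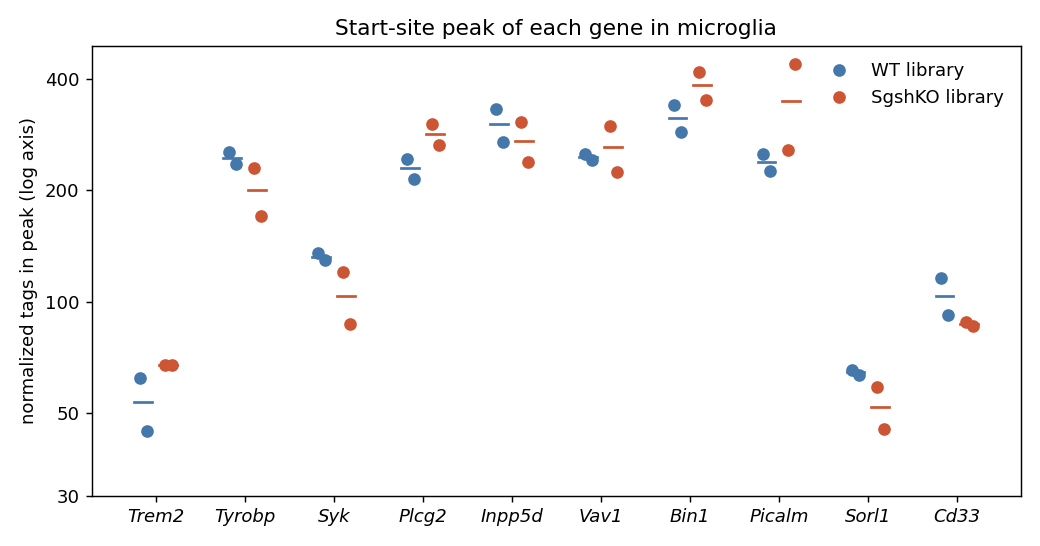
Normalized tags (log y axis) in the start-site peak with the highest mean for each gene (x axis) in microglia. Points are single libraries, 2 WT and 2 SgshKO, and bars are group means; no gene passed the test, and single libraries run from 44.9 tags at Trem2 to 438 at Picalm.

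Per 100 bp of peak, the WT level of these start-site peaks was lowest at Sorl1 (23.8 tags) and Trem2 (24.7), then rose through Cd33 (42.8), Syk (56.9), Plcg2 (91.0), Tyrobp (101), Vav1 (102) and Picalm (103) to Bin1 (136) and Inpp5d (143). In this order the WT libraries of Sorl1 and Trem2 overlapped, as did those of Tyrobp, Vav1 and Picalm and those of Bin1 and Inpp5d. The Trem2 promoter was thus among the least accessible of the 10, at about the level of Sorl1. Within Trem2 the tallest peak was not at the start but in intron 1 of 4, 1.1 kb downstream. It held 118 and 72.9 tags in WT and 103 and 74.3 in SgshKO, and its groups overlapped (log2 change -0.08).

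Upstream of Trem2, an intergenic peak at chr17:48336899-48337105 (mm10), 9.4 kb before the start, held 52.7 and 42.4 tags in WT and 21.6 and 14.8 in SgshKO. Both SgshKO libraries were below both WT libraries, at a mean 2.61-fold lower. The log2 change was -1.35 ± 0.40 (limma adjusted p = 0.0309). DESeq2 on the recovered reads left it just outside the threshold (adjusted p = 0.0753). Of the 4 peaks assigned to Trem2 it was the only one called. The remaining peak, 4.4 kb upstream, held 13.8 and 11.9 against 7.79 and 10.2 tags.

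At Tyrobp a peak 20.5 kb upstream (chr7:30393137-30393502) held 37.2 and 35.6 tags in WT and 18.2 and 10.2 in SgshKO, both lower. Its log2 change was -1.35 ± 0.43 (limma adjusted p = 0.0460), which became 0.141 by DESeq2 and 0.0781 without SgshKO replicate 2. A much taller peak close by, 19.2 kb upstream, held 236 and 212 tags against 219 and 170, and its groups overlapped. The tall peak 1.0 kb before the Tyrobp start held 264 and 245 tags in WT and 330 and 274 in SgshKO (0.24, limma adjusted p = 0.641). Of the 5 distal Tyrobp peaks, 4 had a change below 0 and 2 passed at an unadjusted p under 0.05, with a median log2 change of -0.91. The start-site peak of Tyrobp was called lower with quantile normalization (-0.69, limma adjusted p = 0.0195).

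Cd33 had no called peak among 6 (1 at an unadjusted p under 0.05, 1 by edgeR and 0 by DESeq2). Its groups were without overlap at all 6, 5 lower and 1 higher in SgshKO. Groups of 2 that do not overlap were common, at 51.1% of all microglia peaks and 108 of the 193 member peaks. The smallest p belonged to a peak 10.7 kb upstream with 14.7 and 19.5 tags in WT and 6.93 and 4.64 in SgshKO (-1.42 ± 0.50, limma adjusted p = 0.07265). The 2 tallest distal peaks, 11.6 and 11.2 kb upstream, held 134 and 89.8 against 73.6 and 78.9, and 113 and 126 against 94.4 and 84.5 tags.

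The enzymes downstream of TYROBP showed no called peak. Syk had 0 of 19 called (4 at an unadjusted p under 0.05, 3 by edgeR, 0 by DESeq2), and Vav1 had 0 of 16 (0 unadjusted, 0 by edgeR and 0 by DESeq2). In intron 1 of Syk, 1.9 kb from a start, a peak held 29.4 and 25.4 tags in WT and 15.6 and 8.36 in SgshKO, both lower (-1.19, limma adjusted p = 0.105). Plcg2 had 0 of 35 called by limma (3 unadjusted), but 2 called higher by edgeR and 2 by DESeq2. Its smallest p fell on a very tall peak in intron 2 of 32, 28.1 kb from the start, which held 505 and 457 tags in WT and 919 and 626 in SgshKO. Both SgshKO libraries were higher there, at a log2 change of 0.66 ± 0.25 (limma adjusted p = 0.0980). The median over the Plcg2 peaks was 0.30, the highest of the 10 genes.

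Inpp5d, with 51 peaks, had the most of any member. Its changes lay below 0 at 47 of the 51, against 50767 of all 91770 microglia peaks. Their median was -0.37, against -0.08 over all microglia peaks, and 3 intronic peaks were called lower. In intron 8 of 26 (chr1:87681851-87682126) a peak held 54.5 and 43.2 tags in WT and 16.4 and 10.2 in SgshKO. Both SgshKO libraries were far below WT, a mean 3.66-fold lower, at a log2 change of -1.82 ± 0.42 (limma adjusted p = 0.00443). In intron 1 (chr1:87631650-87631852) a peak fell from 42.4 and 31.3 to 12.1 and 15.8 tags (-1.34 ± 0.42, limma adjusted p = 0.0456; 0.157 by DESeq2). In intron 6 (chr1:87678440-87678702) a low peak with 12.1 and 6.78 tags in WT held 1.73 and 1.86 in SgshKO, which is 2 reads in each SgshKO library. Its log2 change of -1.85 (limma adjusted p = 0.0328) therefore rests on few reads and on the pseudocount of 1, and a pseudocount of 0.5 took the adjusted p to 0.0509.

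Picalm had the most called peaks among the members, 5 of 23, all lower in SgshKO and all in intron 1 of 19. Of the 19 distal peaks in that intron, 16 had a change below 0 and 13 had both SgshKO libraries under both WT libraries, against 1 with both above and 5 with overlap. Their median log2 change was -1.10. Over all microglia peaks the groups did not overlap at 51.1%, and 39379 of the 67964 distal peaks had a change below 0. The intron was described because it holds the 5 called peaks. Those peaks are among the ones counted, so the counts are no separate support for the calls. The tallest called peak, 20.3 kb from the start (chr7:90150399-90150619), held 125 and 118 tags in WT and 57.1 and 35.3 in SgshKO. The mean was 2.63-fold lower and the log2 change -1.42 ± 0.33 (limma adjusted p = 0.00520).

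The other 4 called Picalm peaks were low sites that held few reads in SgshKO. At chr7:90140982-90141219, 10.9 kb from the start, WT libraries held 24.2 and 14.4 tags and SgshKO libraries 2.60 and 1.86, which is 3 and 2 reads. Its log2 change of -2.62 ± 0.53 (limma adjusted p = 0.00123) was the largest among the member peaks in microglia. At chr7:90139100-90139312, 9.0 kb from the start, the values were 12.96 and 12.71 against 0.87 and 2.79 tags, or 1 and 3 reads (-2.38, limma adjusted p = 0.00506). The pair at 15.9 and 17.1 kb held 15.6 and 19.5 against 4.33 and 2.79, and 15.6 and 11.9 against 3.46 and 3.71 tags (-2.03 and -1.67, limma adjusted p = 0.00992 and 0.0396). Between them, 16.3 kb from the start, a taller peak held 70.9 and 77.1 tags in WT and 77.0 and 52.9 in SgshKO, and its groups overlapped (-0.21). With DESeq2 2 of the 5 calls were made, at 10.9 and 20.3 kb, and the peak at 15.9 kb had an adjusted p of 0.103. DESeq2 gave no adjusted p at 9.0 and 17.1 kb. The call at 17.1 kb was lost with a pseudocount of 0.5 (limma adjusted p = 0.0518) and with quantile normalization (limma adjusted p = 0.0764).

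**Figure D3:**
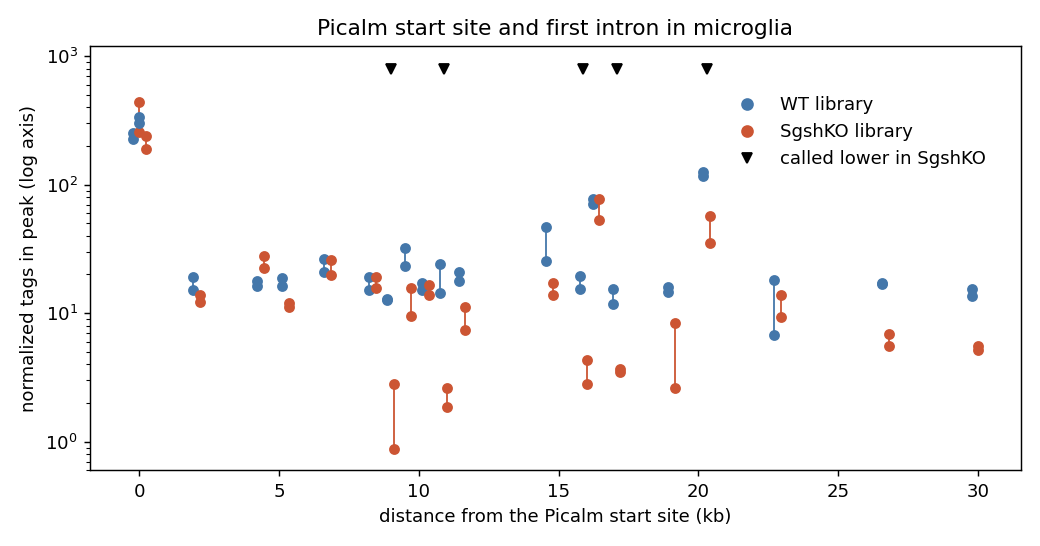
Normalized tags (log y axis) in the Picalm start-site and intron 1 peaks of microglia by distance from the start (x axis, kb). Each pair of joined points is the 2 libraries of a genotype, shifted slightly apart, and triangles mark the 5 peaks called lower in SgshKO, at 9.0, 10.9, 15.9, 17.1 and 20.3 kb.

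Bin1 had 0 of 16 peaks called in microglia (1 at an unadjusted p under 0.05, 1 by edgeR, 0 by DESeq2). The site with the smallest p, 33.9 kb upstream, was tall, with 168 and 129 tags in WT and 252 and 207 in SgshKO. Both SgshKO libraries were higher there, but the log2 change of 0.63 ± 0.28 did not pass (limma adjusted p = 0.170). Sorl1 had the only member peak called higher, 17.5 kb upstream (chr9:42141635-42141875), with 27.65 and 22.03 tags in WT and 76.2 and 47.4 in SgshKO. The log2 change was 1.25 ± 0.38 (limma adjusted p = 0.0350), and without SgshKO replicate 1, the higher library, the adjusted p was 0.0731.

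Of 50 other TREM2 signalling genes, 46 had a start-site peak in microglia, and 8 of their 122 such peaks were called higher and 1 lower (median log2 change 0.08, against 0.03 over all start-site peaks). That is 6.56% higher and 0.820% lower, against 8.59% and 1.20% of all start-site peaks in microglia. Bcl10, an adaptor of the CARD9 complex, rose from 172 and 134 tags to 430 and 517 (1.63 ± 0.27, limma adjusted p = 8.51e-05). Vav2, a relative of Vav1, rose from 186 and 201 to 595 and 542 (1.55), and Grb2, a growth factor receptor adaptor, from 64.0 and 67.8 to 209 and 188 (1.58). Pik3ap1, an adaptor of PI3-kinase, fell from 32.8 and 33.0 to 12.99 and 8.36 (-1.57, limma adjusted p = 0.0228). In these genes all SgshKO libraries lay outside the WT range. In-peak scaling gave 8 higher and 5 lower, and without WT replicate 1 or 2 there were 3 and 1 called.

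Distal peaks of the same 50 genes were called lower more often than higher, 38 against 14 of 571, or 6.65% and 2.45%. Over all distal peaks in microglia 2.72% were called lower and 3.80% higher. Pik3r1, the regulatory subunit of PI3-kinase, singled out after its values were seen, held 29 of the 38. Without it the counts were 9 lower and 14 higher of 503. In-peak scaling turned this split, with 52 lower and 14 higher.

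Of 52 other genes reported in Alzheimer association studies, 45 had a start-site peak in microglia, and 10 of their 88 such peaks were called higher and 1 lower (11.4% and 1.14%, against 8.59% and 1.20% of all start-site peaks). Their median was -0.08. Tspan14, a tetraspanin partner of ADAM10, rose from 254 and 236 tags to 923 and 1279 (2.14 ± 0.25, limma adjusted p = 3.15e-07). Aph1b, a gamma-secretase subunit, rose from 363 and 321 to 897 and 661 (1.17). Apoe, the lipid carrier, rose from 16.4 and 15.2 to 64.9 and 52.0 (1.81, limma adjusted p = 0.00265), and Adamts1, a secreted protease, fell from 36.3 and 43.2 to 6.93 and 18.6 (-1.70). Their distal peaks were called higher at 26 and lower at 11 of 455 (5.71% and 2.42%, against 3.80% and 2.72% of all distal peaks), and in-peak scaling turned that to 28 and 52. Without WT replicate 1 or 2, 2 and 1 start-site peaks were called.

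In NeuN+ nuclei the members gave 15 called peaks of 71, 4 higher and 11 lower in SgshKO. This is 21.1% called, against 29.8% of all NeuN+ peaks, and 15.5% called lower, against 19.6%. Here 3 of 6 start-site peaks were called, all lower, where 44.9% of all NeuN+ start-site peaks were called lower. The median log2 change was -0.73 over those 6 and -0.53 over all start-site peaks of the table. The summed start-site tags of the neuron markers were lower as well, at 756 and 813 in WT and 416 and 422 in SgshKO. Those of the oligodendrocyte-lineage markers also fell, from 140 and 120 to 67.0 and 71.7. The 1 microglia marker with a start-site peak went from 54.4 and 48.0 to 34.2 and 32.4. The part of these sums in the result was not tested. Median-of-ratios scaling gave 8 higher and 8 lower and in-peak scaling 11 and 8, and without either SgshKO library no NeuN+ peak of any gene was called.

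The Bin1 start-site peak of NeuN+ nuclei held 134 and 106 tags in WT and 60.7 and 66.0 in SgshKO, a mean 1.89-fold lower (-0.90 ± 0.14, limma adjusted p = 0.000170). At Picalm they were 121 and 94.3 against 64.9 and 62.2 (-0.74 ± 0.14, limma adjusted p = 0.00107). The Sorl1 peak 118 bp upstream of the start held 30.6 and 23.7 against 16.8 and 12.1 (-0.88, limma adjusted p = 0.0147). All SgshKO values were below all WT values. Under quantile normalization none of the 3 passed, with changes of -0.39, -0.24 and -0.75. Syk, 25.5 and 17.5 against 15.4 and 10.2 tags, missed the threshold (-0.71, limma adjusted p = 0.0613).

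Distal NeuN+ peaks went both ways. Sorl1 had the most, with 46, of which 2 were called higher and 6 lower. The tallest of those, 125.8 kb from the start, held 38.5 and 28.2 tags in WT and 13.3 and 10.2 in SgshKO (-1.43, limma adjusted p = 0.000491), and 1 in intron 6.5 kb upstream of a start held 25.5 and 24.3 against 43.3 and 50.2 (0.88, limma adjusted p = 0.00264). A peak 3.5 kb upstream of Vav1 held 48.7 and 43.5 against 18.9 and 20.9 tags (-1.17, limma adjusted p = 0.000394). Inpp5d had 1 intronic peak called higher, from 2.83 and 1.69 to 11.9 and 13.3 tags (2.08), and 1 called lower, from 7.36 and 12.4 to 1.40 and 4.44 (-1.55, limma adjusted p = 0.0115). An intergenic peak 53.1 kb upstream of Bin1 held 1.13 tags, or 2 reads, in each WT library and 8.38 and 8.25 in SgshKO (2.13, limma adjusted p = 0.000883). These low peaks hold few reads in the lower group.

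In Olig2+ nuclei 8 of 70 member peaks were called, 2 higher and 6 lower, all distal. This is 11.4% called, against 19.8% of all Olig2+ peaks, and 8.57% called lower, against 11.7%. DESeq2 called none of the 70, edgeR 9 (5 higher and 4 lower), and median-of-ratios scaling 4 higher and 4 lower. At some of the called peaks, among them those of Trem2 and Plcg2, DESeq2 gave no adjusted p and so could make no call. The start sites of Bin1 (323 and 297 against 280 and 280 tags), Picalm (311 and 312 against 325 and 339) and Sorl1 (33.2 and 29.1 against 27.7 and 28.6) had no call by limma, edgeR or DESeq2 and none at an unadjusted p under 0.05. Bin1, which had 21 peaks here, had 0 called by limma (5 unadjusted), edgeR and DESeq2.

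**Figure D4:**
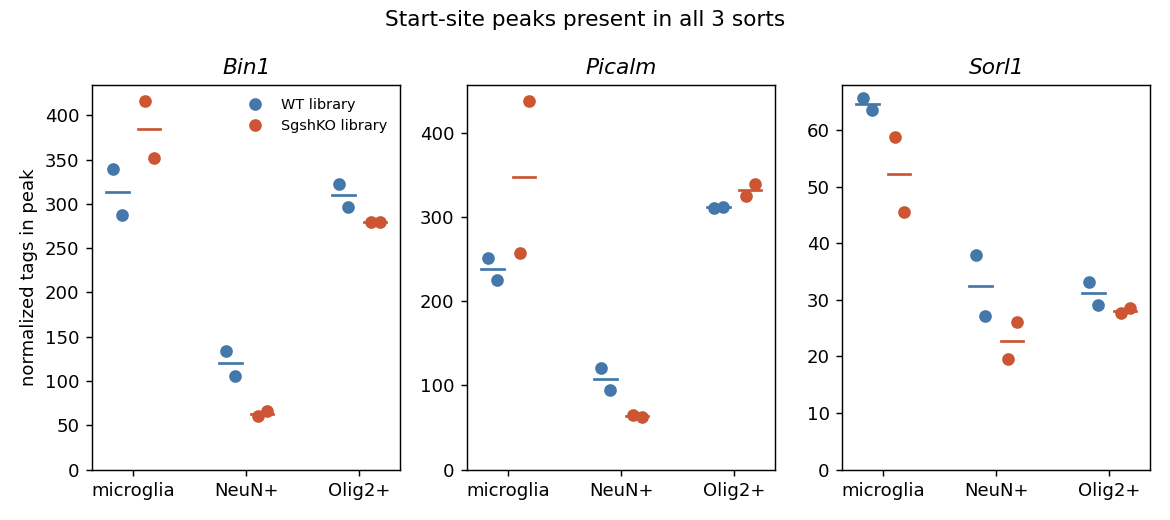
Normalized tags (y axis) in the tallest start-site peak of Bin1, Picalm and Sorl1 in each sort (x axis). Points are libraries and bars group means; the SgshKO libraries of NeuN+ nuclei lie under the WT ones at all 3 genes, and in Olig2+ nuclei the SgshKO libraries stand at 280 tags at Bin1 and at 325 and 339 at Picalm.

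The Trem2 peak 9.4 kb upstream was among the called Olig2+ peaks, with 9.34 and 12.8 tags in WT and 1.84 and 4.65 in SgshKO (-1.58 ± 0.39, limma adjusted p = 0.00486). It was far lower than in microglia, and the Olig2+ libraries had start-site peaks for 2 of 9 microglia markers, with Cx3cr1, Csf1r, P2ry12 and Tmem119 without one. The sum over those 2 markers was 233 to 240 tags in WT and 271 to 284 in SgshKO. The part of these markers in the Trem2 result was not tested, and the sum rests on 2 of the 9. In NeuN+ nuclei the same site held 7.93 and 9.60 against 6.98 and 6.98 tags (-0.29, limma adjusted p = 0.519). Without either Olig2+ WT library the Olig2+ call was lost (limma adjusted p = 0.063 and 0.185).

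The Picalm peak 20.3 kb into intron 1 was also called in Olig2+ nuclei, with 65.9 and 77.7 tags in WT and 37.5 and 53.8 in SgshKO (-0.66 ± 0.17, limma adjusted p = 0.00799). In NeuN+ nuclei it was low, at 9.06 and 6.78 against 10.5 and 6.98 tags, and the groups overlapped. Plcg2 had 1 peak called higher in Olig2+ nuclei, 17.6 kb upstream, from 3.63 and 3.07 to 9.84 and 7.31 tags (1.13, limma adjusted p = 0.0333). At Sorl1 4 of 40 Olig2+ peaks were called lower and 1 higher, with log2 changes from -1.15 to 1.06.

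**Figure D5:**
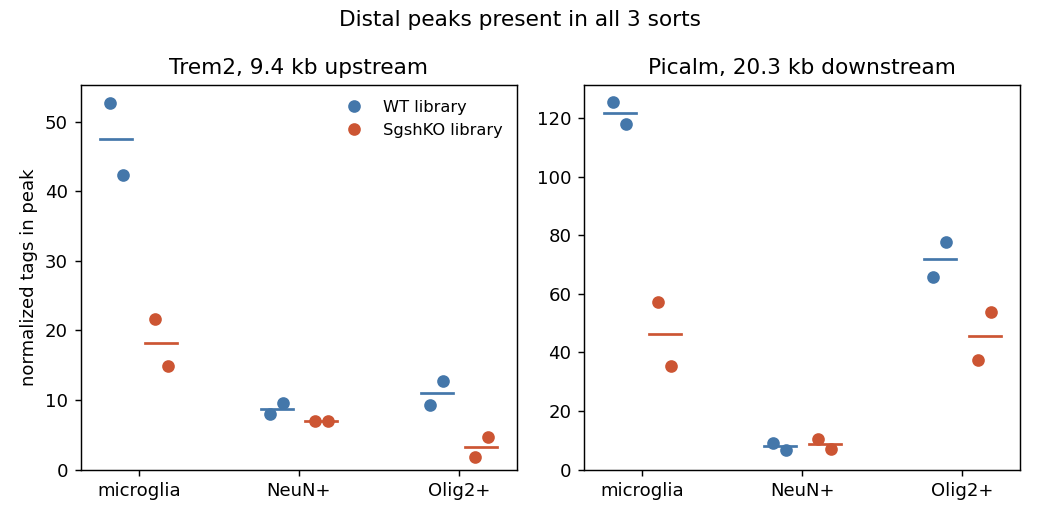
Normalized tags (y axis) at the Trem2 peak 9.4 kb upstream and the Picalm peak 20.3 kb downstream of the start in each sort (x axis), with points for libraries and bars for group means. At both sites SgshKO libraries lie under WT libraries in microglia and Olig2+ nuclei, and the NeuN+ values stay under 11 tags.

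Whether a change differed between sorts was tested in a single model of the 12 libraries at 16761 peaks matched one to one across the tables by 50% reciprocal overlap. Of these, 9 were member peaks. Between microglia and NeuN+ nuclei 5 of the 9 differed (42.5% of all matched peaks), between microglia and Olig2+ nuclei 1 (21.6%), and between NeuN+ and Olig2+ nuclei 3 (31.7%). The Bin1 start-site change was 1.19 ± 0.20 higher in microglia than in NeuN+ nuclei (limma adjusted p = 4.48e-05), and that of Picalm 1.23 ± 0.25 (limma adjusted p = 0.000327). Quantile normalization reduced both differences to 0.18 and 0.28, neither of which passed. At the Picalm peak 20.3 kb into the gene, the microglia change was lower than the NeuN+ one by -1.53 ± 0.39 (limma adjusted p = 0.00273).

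At the Trem2 peak 9.4 kb upstream no pair of sorts passed with the deposited scaling. The microglia change exceeded the Olig2+ one by 0.23 ± 0.53 (limma adjusted p = 0.811) and lay below the NeuN+ one by -1.06 ± 0.53 (limma adjusted p = 0.114). With errors of that size the sorts are not shown to act alike at this site.

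The start-site levels of Bin1, Picalm and Sorl1 could be set beside those of 9993 genes with a start-site peak in all 3 tables. Over the 12 libraries the gene most like Bin1 was Mxd4 (Pearson r = 0.989 of log2 levels), the one most like Picalm was Plekho2 (r = 0.990), and the one most like Sorl1 was 1810034E14Rik (r = 0.981). These values were taken over all 3 sorts together, so differences between the sorts enter them. How much they add was not tested, and the values are descriptions.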

How the data were processed

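Per the submitters' processing notes the tools were Bowtie2 and HOMER and the build mm10; not given in the sources used here are versions, read shifting and duplicate handling. Each sort has a table deposited by the authors, with peaks merged over WT and SgshKO libraries, the nearest gene, and a signal, the tags per peak scaled to 10000000 per library, per the file headers. The deposited Peak Score, a score of 540 to 1000, was not used. Multiplying by the header totals gave whole reads for 100% of values (within 0.01). All 12 tag columns matched a title.

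Log2(tags + 1) was fitted with limma 3.58.1 (trend, two-sided, no covariate) in R 4.3.3 over each whole table, with Benjamini-Hochberg adjustment. No peak was filtered out. Changes on this scale are understated for low peaks, and ± after a log2 change is the standard error. An exact permutation test of 2 against 2 libraries cannot go below p = 0.333. Peaks were matched between tables with bedtools 2.31.1. Named for each gene and table were the tallest start-site peak, called start-site peaks, the distal peak of smallest p and up to 3 called distal peaks per direction; other peaks are given for context. Of the other pathway genes, up to 3 start-site peaks per direction were named in microglia. Alternatives were pseudocounts of 0.5 and 5, a filter on the lowest 25% of peaks, 3 other scalings, edgeR 4.0.16 and DESeq2 1.42.0 on the recovered reads, a replicate block, a 25% overlap and leaving out each library. The fits were tested on simulated data. The members and gene lists were chosen with earlier results of these data known. Promoters came from RefSeq (GRCm38.p6, whose primary chromosomes are those of mm10), and those of 8 of 10 members were searched. Tyrobp had no entry, and the Bin1 promoter was left out of the search. Distal sequences were not used here.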

Additional observations from a re-analysis of the deposited data

Results flagged for a closer look

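Of the member peaks matched across the 3 sorts, 5 had a change, SgshKO against WT, that differed between sorts by the test of the difference itself (limma over 12 libraries, adjusted over 16761 peaks). Vav1, 3.5 kb upstream, fell in NeuN+ nuclei (-1.17) but not in microglia (0.49, not called; 59.6 and 55.1 tags in WT, 58.0 and 112 in SgshKO) or Olig2+ nuclei (0.34, not called). Its difference was 1.66 for microglia minus NeuN+ (limma adjusted p = 0.000919) and -1.51 for NeuN+ minus Olig2+ (limma adjusted p = 0.00433; 0.0518 with in-peak scaling).

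The Bin1 start-site peak differed by 1.19 for microglia minus NeuN+ and by -0.76 for NeuN+ minus Olig2+ (limma adjusted p = 4.48e-05 and 0.00753). The Picalm start-site peak differed by 1.23 and -0.83 in the same contrasts (limma adjusted p = 0.000327 and 0.0153), and the Picalm peak 20.3 kb into the gene by -1.53 for microglia minus NeuN+ (limma adjusted p = 0.00273). The differences at both start sites were lost with quantile normalization, at 0.18 and -0.21 for Bin1 and 0.28 and -0.29 for Picalm. In-peak scaling ended the Picalm start-site differences (0.73 and -0.55, limma adjusted p = 0.0956 and 0.244) and that of Bin1 for NeuN+ minus Olig2+ (-0.48, limma adjusted p = 0.0990).

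The Sorl1 peak 17.7 kb upstream of a start differed by 1.29 for microglia minus NeuN+ (limma adjusted p = 0.0250) and by 1.69 for microglia minus Olig2+ (limma adjusted p = 0.00888); in-peak scaling gave 0.82 for the first (limma adjusted p = 0.128). It was higher by 1.06 in SgshKO microglia without passing the test there (limma adjusted p = 0.0780), and lower by -0.63 in SgshKO Olig2+ nuclei. Without microglia WT replicate 2 the adjusted p of the 2 differences were 0.152 and 0.0696.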

How the results depend on the processing

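Groups of 2 libraries limit every call. The number of called member peaks, 11 in microglia, was 6 without the lowest 25% of peaks, 30 with in-peak scaling (1 higher, 29 lower), 20 with median-of-ratios scaling, 25 with quantile normalization, 26 with edgeR and 7 with DESeq2; all 11 were called in the same direction under in-peak scaling, median-of-ratios scaling and edgeR, against 9 with quantile normalization, 6 without the lowest 25% of peaks and 4 with DESeq2. Of all microglia peaks, the filter called 5.565%, in-peak scaling 15.8%, median-of-ratios scaling 13.02%, quantile normalization 11.4%, edgeR 15.5% and DESeq2 5.28%. The fit with the 11 calls called 7.37% of all microglia peaks and 5.70% of the member peaks. In NeuN+ nuclei (15) the number of called member peaks was 9 with quantile normalization and 4 with DESeq2, where 15.6% and 4.55% of all peaks were called. In Olig2+ nuclei (8) it was 5 without the lowest 25%, 5 with quantile normalization and 0 with DESeq2. Of all Olig2+ peaks these called 16.2%, 16.7% and 4.35%. There the filter took out the rest of the 8, and DESeq2 gave no adjusted p for the Trem2 and Plcg2 calls. Leaving out 1 library gave 0 to 37 in microglia, 0 to 9 in NeuN+ and 1 to 10 in Olig2+ nuclei. The differences between sorts, 5, 1 and 3, became 3 (microglia minus NeuN+) and 1 (NeuN+ minus Olig2+) with quantile normalization, and 1 (NeuN+ minus Olig2+) with in-peak scaling; without 1 library they were 4 to 6, 0 to 3 and 1 to 4. The 1 called with in-peak scaling was another peak, since that scaling ended all 3 differences between NeuN+ and Olig2+ nuclei named above. The cause of these shifts in the counts was not tested. The median change of all microglia peaks moved from -0.08 to -0.28 with in-peak scaling, and that of all NeuN+ peaks from -0.23 to 0.05.

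Signs turned at start sites without a call in microglia: Bin1 to -0.21, Plcg2 to -0.11 and Vav1 to -0.35 with quantile normalization, and Vav1 to -0.14 with in-peak scaling. Leaving out 1 library gave ranges that crossed 0 for Vav1 (-0.14 to 0.27) and Inpp5d (-0.33 to 0.0269) at their starts in microglia, and in NeuN+ nuclei for the Picalm peak at 20.3 kb (-0.15, and -0.07 without WT replicate 2, to 0.37) and the Plcg2 peak at 19.9 kb (-0.0393 to 0.15). With quantile normalization the start-site peaks of Inpp5d (-0.61), Tyrobp (-0.69) and Picalm (-1.01, 117 bp downstream) passed in microglia, and with in-peak scaling that of Picalm (-0.78).

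With the replicate number as a block, 28 member peaks were called in microglia, where 15.8% of all peaks were called. The same block gave 21 in NeuN+ and 8 in Olig2+ nuclei. With it the Picalm start-site peak 117 bp downstream passed in microglia (limma adjusted p = 0.0375). Same-numbered libraries share only a number: the correlation of their deviations from the group means was 0.042 in microglia, 0.0036 in NeuN+ and 0.00069 in Olig2+ nuclei.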
